A study of Homo sapiens with 8 samples.

Results

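The genes of mitochondrial fatty acid oxidation and the targets of PPAR alpha were followed in a human liver cancer line exposed to 3 plastic-related phenols. The 9 genes were chosen by name, with earlier results of these data known. They are the receptor gene PPARA, the carnitine palmitoyltransferases CPT1A and CPT2, the chain-shortening enzymes ACADVL, ACADM, HADHA and ACAA2, and the PPAR alpha targets PDK4 and ANGPTL4. They are 9 of the 60230 genes in the count table, and 8 of them had enough counts to be tested, the exception being PDK4. In these cells none of the 8 passed the threshold (an adjusted p of 0.05) under any compound in the fit without a block, and 2 of them (CPT1A and ACADVL) passed under compound 4 when the replicate number was kept as a block. In the fit without a block, 7 of their 24 unadjusted 95% intervals against DMSO excluded no change. Over all 13400 genes tested in that fit, 9.51%, 8.3% and 0.575% passed the threshold under compounds 4, 5 and 6. An unadjusted p under 0.05 was found for 27.5%, 28.4% and 18.6% of them by edgeR's quasi-likelihood F test. With the block, 1699 of the 13400 genes passed under compound 4.

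All 8 libraries came from HepG2 cells, an established line from a human liver tumour, that carried a CYP2C19 transgene and were kept in medium with serum and blasticidin. CYP2C19 is a cytochrome P450 enzyme that oxidizes many drugs. The transgene was present in the DMSO group as well as in the treated groups, and whether the cells were 1 clone and which promoter drove the transgene is not given in the sources used here. Cells were treated for a day with DMSO, the solvent, or with compound 4 (metylcresol in the labels), compound 5 (tetrabut) or compound 6 (cyclohexil). Each of the 4 groups had 2 libraries, which the labels mark as day 1 and day 2 and which are called replicate 1 and replicate 2 here. Each compound was given at its own IC50, a concentration set by how strongly it inhibited the cells, so the concentrations were not identical. All 3 compounds are bisphenols, in which a bridge joins a pair of phenol rings. Compounds 4 and 6 share a methylene bridge and a methyl group on each ring, and differ in carrying a tert-butyl group (4) or a cyclohexyl group (6) on each ring. In compound 5 the bridge carries a methyl group and each ring bears a pair of tert-butyl groups. The question put to the data was whether transcripts of fatty acid oxidation changed after exposure to each compound, and whether the compounds differed in this.

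Fatty acids are burned in mitochondria in a fixed order of steps. CPT1A on the outer membrane couples a long-chain fatty acid to carnitine, a step that malonyl-CoA inhibits, and CPT2 on the inner side returns it to coenzyme A. An acyl-CoA dehydrogenase, a hydratase, a second dehydrogenase and a thiolase then remove an acetyl unit in each round. PPAR alpha, a nuclear receptor that binds fatty acids and fibrate drugs, pairs with RXR on DNA and raises transcription of these genes in the fasting liver. PDK4 and ANGPTL4 are among its well known targets.

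The total count was between 9791659 and 17814595 per library, and 13400 genes passed the filter on low counts. The 8 hepatocyte markers were detected in every library. Their summed level was 42442 to 45277 CPM (counts relative to the library size, scaled with TMM factors) in the DMSO libraries and 29991 to 37865 CPM in the treated ones. Of these markers, 3 were lower under compound 4 (37.5%, where 3.91% of all genes were lower). Under compound 5, 1 was higher (12.5%, where 5.35% of all genes were higher), and none passed under compound 6. Their fold changes were negative for 6, 7 and 7 of the 8 under compounds 4, 5 and 6. The summed level of 8 markers of leukocytes, endothelium, mesenchyme and bile duct was 27.9 to 51.3 CPM, with PTPRC and COL1A2 at 0 in every library. The sums were 33.8 and 40.4 CPM in the DMSO libraries and 51.3 and 48.4 CPM with compound 4. Of the 3 of these markers that could be tested, CD68 was higher under compound 4 (log2-fold change 0.80, adjusted p = 0.016, edgeR), ACTA2 was lower under compound 5 (−0.997, adjusted p = 0.032) and none passed under compound 6. In bulk RNA, fewer cells of a type and less RNA per cell cannot be told apart. Transgene and native CYP2C19 are counted together, and their level was 22.0 ± 7.96 CPM (SD, n = 2) in the DMSO group, 37.8 ± 9.07 CPM with compound 4, 45.4 ± 10.5 CPM with compound 5 and 22.6 ± 1.92 CPM with compound 6. It passed the threshold under compound 5 alone (log2-fold change 1.05, adjusted p = 0.040, edgeR), with 0.79 (adjusted p = 0.086) for compound 4 and 0.04 for compound 6. The part of the marker and CYP2C19 differences in the results that follow was not tested.

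Per kilobase of the principal transcript, HADHA and ACADVL had the highest levels among the 9 genes. In the DMSO libraries HADHA stood at 115 ± 6.51 CPM per kilobase (SD, n = 2) and ACADVL at 95.9 ± 6.28 CPM per kilobase. ACAA2 followed at 36.4 ± 1.44, CPT1A at 26.0 ± 7.21, ACADM at 24.4 ± 0.81 and CPT2 at 11.7 ± 0.72 CPM per kilobase. ANGPTL4 (5.34 ± 1.25 CPM per kilobase) and PPARA (4.76 ± 1.07 CPM per kilobase) were low, and PDK4 had no count under DMSO. Of the neighbours in this order, CPT1A and ACADM, and ANGPTL4 and PPARA, did not differ beyond their spread. In these values the order at the top was not the same after treatment, and the order between genes was not tested. Under compound 4 ACADVL was at 125 ± 4.58 and HADHA at 103 ± 6.03 CPM per kilobase, and under compound 6 they were at 114 ± 2.63 and 102 ± 3.04 CPM per kilobase, so that ACADVL stood above HADHA in all 4 of those libraries. Under compound 5 the pair did not separate, with 116 ± 11.4 for ACADVL and 114 ± 0.89 CPM per kilobase for HADHA.

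**Figure D1:**
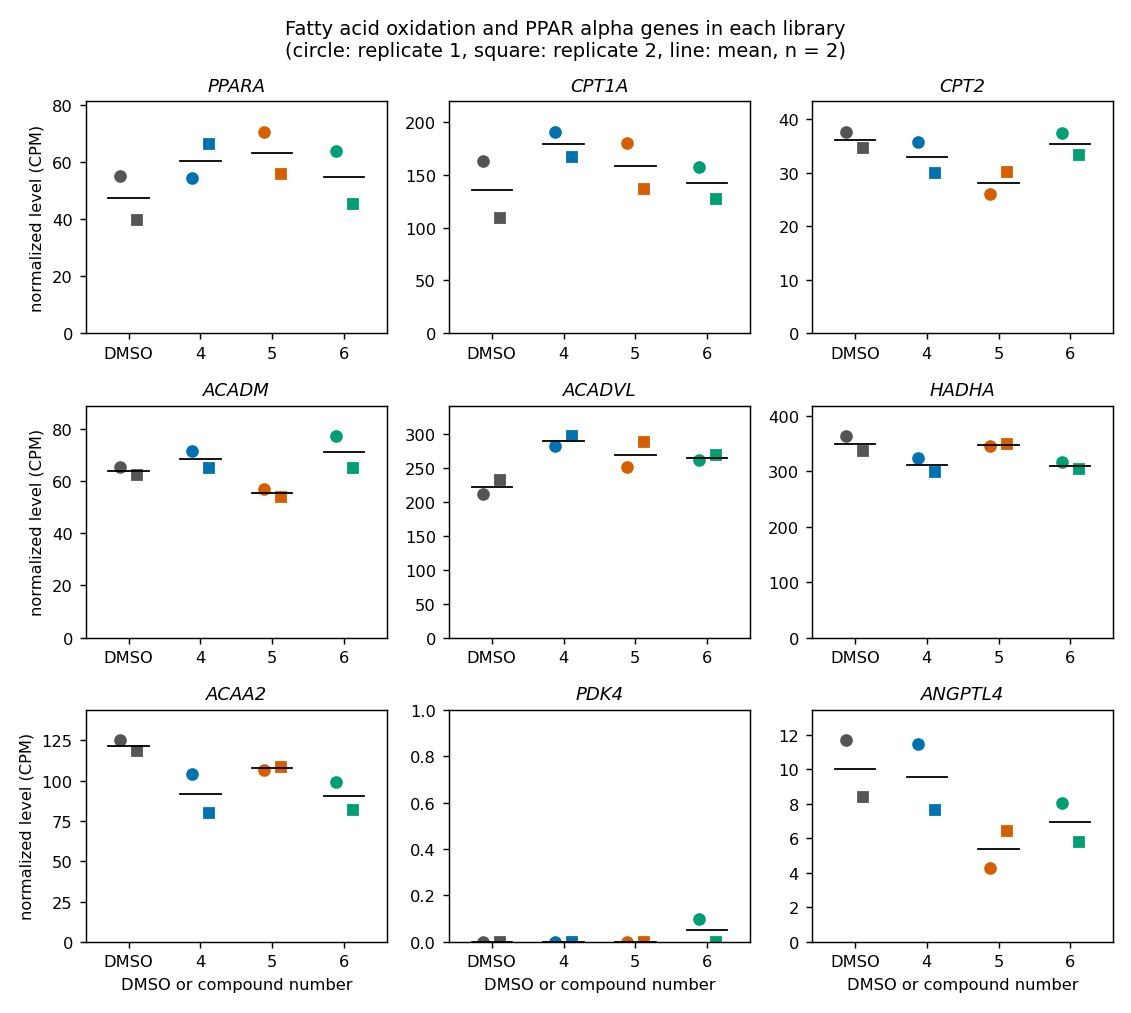
Normalized level in CPM of each of the 9 genes (vertical axes, each starting at 0) in the 2 libraries of each group, with circles for replicate 1, squares for replicate 2 and a line at the mean. All 6 treated libraries lie above both DMSO libraries for ACADVL and below both for ACAA2, while PDK4 lies at 0 in 7 of 8 libraries.

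PPARA, on chromosome 22 at chr22:46150521-46243756 (plus strand, GRCh38, GENCODE 29 for all positions), encodes the receptor itself. Its level was 55.1 and 39.9 CPM in the DMSO libraries, 54.6 and 66.5 CPM under compound 4, 70.8 and 55.99 CPM under compound 5, and 64.2 and 45.4 CPM under compound 6, replicate 1 given first here and throughout. The DMSO libraries differed from each other by about as much as the group means did, and only under compound 5 did both treated libraries lie above both controls. The log2-fold change against DMSO was 0.35 ± 0.21 (SE) for compound 4, 0.42 ± 0.21 for compound 5 and 0.21 ± 0.21 for compound 6, with adjusted p-values of 0.312, 0.220 and 0.635 by the quasi-likelihood F test of edgeR (Benjamini-Hochberg adjustment over all genes tested). All other adjusted p-values given here come from this test unless another is named.

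CPT1A (chr11:68754620-68844410, minus strand) encodes the enzyme of the entry step. The DMSO libraries gave 163 and 109 CPM, compound 4 gave 191 and 167 CPM, compound 5 gave 180 and 137 CPM, and compound 6 gave 157 and 127 CPM. Both compound 4 libraries lay above both controls, and the libraries of the other compounds overlapped with them. Replicate 1 was higher than replicate 2 in all 4 groups. The log2-fold change was 0.40 ± 0.20 (SE) under compound 4 (95% interval −0.05 to 0.85, adjusted p = 0.233), 0.22 ± 0.20 under compound 5 and 0.06 ± 0.20 under compound 6. With the replicate number as a block, the change under compound 4 was 0.42 with an adjusted p of 0.040 by edgeR's quasi-likelihood test.

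CPT2 (chr1:53196429-53214197, plus strand) encodes the partner enzyme on the inner membrane. Its levels were 37.7 and 34.6 CPM under DMSO, 35.8 and 30.0 CPM under compound 4, 26.0 and 30.2 CPM under compound 5, and 37.4 and 33.3 CPM under compound 6. Only the compound 5 libraries lay below both controls. The log2-fold change there was −0.36 ± 0.14 (SE, 95% interval −0.68 to −0.04), and after adjustment it did not pass (adjusted p = 0.136, edgeR). Under compounds 4 and 6 the values were −0.14 and −0.03. None of the fold changes of the 2 carnitine palmitoyltransferase transcripts passed the threshold, and on leaving out single libraries CPT1A changed sign under compounds 5 and 6 and CPT2 under compound 6.

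ACADVL (chr17:7217125-7225273, plus strand) encodes the dehydrogenase for very long acyl chains and had the smallest p among the 8 tested genes. It stood at 212 and 233 CPM in the DMSO libraries, 283 and 298 CPM under compound 4, 251.5 and 289 CPM under compound 5, and 261.5 and 270.1 CPM under compound 6. Every treated library was above both controls, and replicate 2 was the higher one in all 4 groups. The log2-fold change was 0.38 ± 0.11 (SE, 95% interval 0.14 to 0.62) under compound 4 with an adjusted p of 0.053, just outside the threshold by edgeR's test. Under compound 5 it was 0.28 ± 0.11 (0.04 to 0.52, adjusted p = 0.125) and under compound 6 it was 0.26 ± 0.11 (0.02 to 0.49, adjusted p = 0.244). The 3 comparisons share the DMSO libraries. For compound 4 the call depended on the analysis, since the adjusted p was 0.033 by DESeq2's Wald test and 0.024 by edgeR with the replicate block. The genes whose mean-centred log2 CPM over the 8 libraries lay nearest to ACADVL were CROCCP2 (root mean square difference 0.034), CDC25B (0.041) and PUS3 (0.045), against a median difference of 0.261 over all tested genes. CROCCP2 is a pseudogene and may share reads with its parent gene.

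ACADM (chr1:75724347-75787575, plus strand) encodes the dehydrogenase for medium chains. Its levels were 65.5 and 62.5 CPM under DMSO, 71.8 and 65.2 CPM under compound 4, 57.0 and 53.8 CPM under compound 5, and 77.4 and 64.9 CPM under compound 6. The compound 5 libraries were the lowest of the 8, and those of compounds 4 and 6 reached from within the DMSO range to above it. The log2-fold change was 0.10 ± 0.12 (SE) with compound 4, −0.21 ± 0.12 with compound 5 and 0.15 ± 0.12 with compound 6, and the adjusted p-values were 0.642, 0.279 and 0.531 by edgeR.

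HADHA (chr2:26190635-26244726, minus strand) encodes the alpha subunit of the trifunctional protein, which carries the hydratase and the second dehydrogenase for long chains. It had 364 and 336 CPM under DMSO, 325 and 299 CPM under compound 4, 346 and 349 CPM under compound 5, and 317 and 304 CPM under compound 6. The libraries of compounds 4 and 6 lay below both controls and those of compound 5 between them. The log2-fold changes were −0.17, −0.01 and −0.18, each with an SE of 0.10, and none passed (adjusted p = 0.297, 0.948 and 0.364, edgeR).

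ACAA2 (chr18:49782167-49813960, minus strand) encodes a thiolase of the mitochondrial matrix. It had 125 and 118 CPM in the DMSO libraries, and each treated library lay below both, but no difference passed the threshold. The values were 104 and 79.7 CPM under compound 4, 107 and 109 CPM under compound 5, and 99.5 and 81.6 CPM under compound 6. The log2-fold change was −0.41 ± 0.14 (SE, 95% interval −0.73 to −0.08, adjusted p = 0.104, edgeR) under compound 4. It was −0.18 ± 0.14 under compound 5 (adjusted p = 0.440) and −0.43 ± 0.15 under compound 6 (−0.75 to −0.10, adjusted p = 0.163). Without compound 4 replicate 1 the change under compound 4 was −0.63 with an adjusted p of 0.045, and with only the 4 libraries compared the change under compound 6 was −0.45 with an adjusted p of 0.047, both by edgeR's test.

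PPAR and RXR bind direct repeats of the hexamer AGGTCA spaced by a single base, an element named DR1. The element was searched on both strands of the RefSeq promoter windows (GRCh38.p14), which run from 250 bases before to 50 bases after each transcript start. The exact repeat was found in 8 of 35116 windows (0.0228%), the repeat with at most 2 mismatches in its 12 fixed letters in 2.97%, and the single hexamer, which the repeat contains, in 13.8%. Windows were present for all 9 genes. ACAA2 alone had a match with at most 2 mismatches, and 0 of the 9 had the single hexamer. The stretch is shown because it is the only match among the 9 genes. It lies at chr18:49813588-49813617 on the minus strand, 76 bases before the RefSeq start and inside the first exon of a GENCODE 29 transcript. The capitals mark the whole repeat as aligned, mismatched letters included.
ACAA2: caggaagtAGGTGAAAGGGCAggggcgtgg
A match in letters is a description and does not show that a receptor binds there. Only these windows were searched, so a missing match does not show that a gene lacks the element elsewhere.

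PDK4 (chr7:95583499-95596491, minus strand) encodes a kinase that switches off pyruvate dehydrogenase and so favours fat over glucose as a fuel. It had 0 counts in 7 of the 8 libraries and 1 count in compound 6 replicate 1. A count of 0 allows a level of up to 3 counts, which is 0.171 to 0.307 CPM depending on the library and covers counting error only. No change of PDK4 was detectable at this depth.

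ANGPTL4 (chr19:8363289-8374373, plus strand) encodes a secreted inhibitor of lipoprotein lipase. Among the 8 tested genes it had the fewest counts, with 52 to 122 per library. Its levels were 11.7 and 8.37 CPM under DMSO, 11.5 and 7.60 CPM under compound 4, 4.28 and 6.43 CPM under compound 5, and 8.04 and 5.78 CPM under compound 6. The libraries of compounds 5 and 6 lay below both controls, and those of compound 4 spread over the same range as DMSO. Under compound 5 the log2-fold change was −0.88 ± 0.30 (SE, 95% interval −1.54 to −0.22), the largest in size of the 24 fold changes against DMSO, with an adjusted p of 0.092 by edgeR. Under compound 4 it was −0.08 ± 0.29 (adjusted p = 0.888) and under compound 6 it was −0.53 ± 0.30 (adjusted p = 0.370). ANGPTL4 is also known to be induced by low oxygen. Of 8 hypoxia genes, 1 passed under compounds 4 and 5 (12.5%, against 9.51% and 8.3% of all genes) and none under compound 6 (against 0.575%). This gene was SLC2A1, a glucose transporter, with log2-fold changes of 0.91 (adjusted p = 0.0036, edgeR) under compound 4 and 0.62 (adjusted p = 0.014) under compound 5. The list as a whole was mixed. Positive fold changes were found for 4, 3 and 4 of the 8 genes under compounds 4, 5 and 6, with medians of 0.09, −0.18 and 0.01. The summed level of the 8 genes was 2041 to 2364 CPM in the DMSO libraries and 2596 to 3631 CPM in the treated ones, of which SLC2A1 alone had a mean of 1398 CPM with DMSO and 2634, 2145 and 1924 CPM with compounds 4, 5 and 6. The part of these genes in the ANGPTL4 values was not tested.

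**Figure D2:**
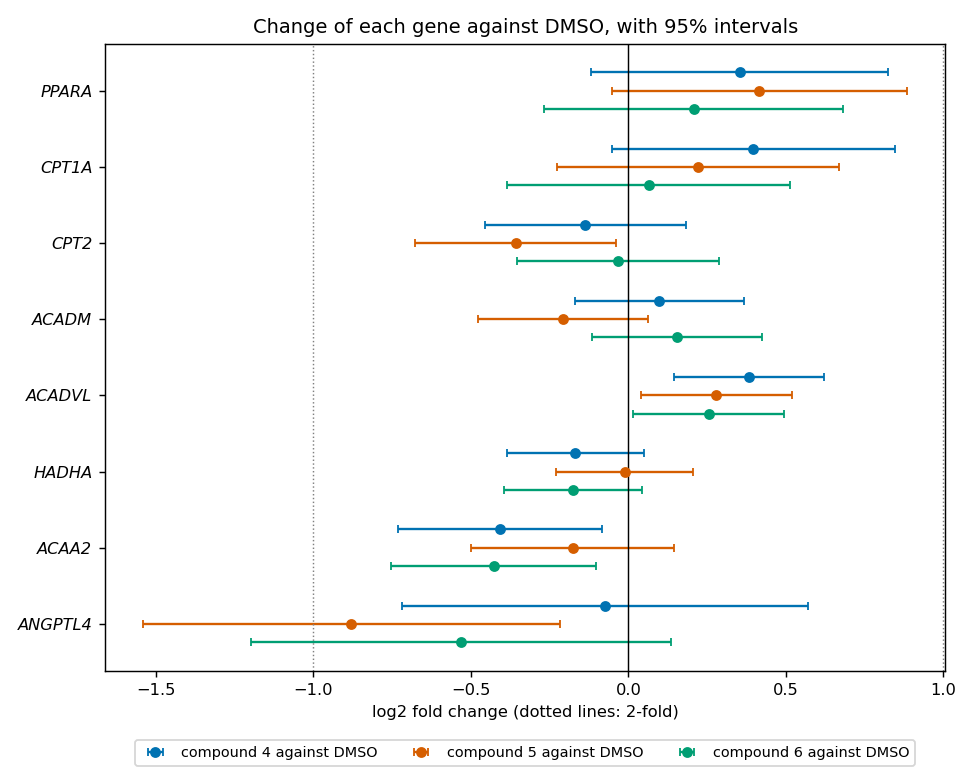
Log2-fold change of the 8 tested genes against DMSO (horizontal axis) under compounds 4, 5 and 6, with points for the estimates and bars for unadjusted 95% intervals. Only the ANGPTL4 intervals for compounds 5 and 6 reach a 2-fold change, and the ACADVL intervals lie above 0 under each compound.

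Over the 8 tested genes, 0 passed the threshold under compound 4, 5 or 6, while 9.51%, 8.3% and 0.575% of all 13400 genes did. At an unadjusted p under 0.05 the counts were 2, 3 and 2 of 8 (27.5%, 28.4% and 18.6% of all genes), and DESeq2's Wald test called 1, 0 and 0. With the replicate block edgeR called 2, 0 and 0 of the 8, and 1699, 1429 and 68 of all 13400 genes. The groups did not overlap with DMSO for 4, 6 and 4 of the 8 genes, against 58.4%, 59.5% and 55.4% of all genes. The counts are therefore close to those of the transcriptome at large. The median of the 8 log2-fold changes was 0.01, −0.09 and 0.02 for compounds 4, 5 and 6, beside 0.01, 0.00 and 0.02 over all genes tested. For the 7 genes other than ANGPTL4, all 21 intervals against DMSO lay between −0.75 and 0.88 on the log2 scale, and 6 of them excluded 0. A 2-fold change in either direction thus lay outside the unadjusted interval for each of these genes under each compound, whereas for ANGPTL4 a 2-fold decrease lay within the interval under compounds 5 and 6.

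The compounds were next set against each other, in 3 pairs. None of the 8 genes passed between compounds 4 and 5, 6 and 5, or 4 and 6, where 0.313%, 1.03% and 0% of all genes passed, and p-values were adjusted over all genes within each pair. At an unadjusted p under 0.05 the counts were 2, 2 and 0 of 8, against 16.2%, 18.5% and 7.05% of all genes, and DESeq2 called 0 in each pair. The groups did not overlap for 4, 4 and 2 of the 8 genes, against 44.5%, 49.4% and 38.6% of all genes. ACADM had lower values under compound 5 than under either of the methylene-bridged compounds, with both libraries below both others. The difference was 0.31 (95% interval 0.04 to 0.58, adjusted p = 0.259, edgeR) for compound 4 minus compound 5 and 0.36 (0.09 to 0.63, adjusted p = 0.161) for compound 6 minus compound 5. ANGPTL4 was 0.80 higher on the log2 scale under compound 4 than under compound 5 (0.14 to 1.46, adjusted p = 0.235), and CPT2 was 0.33 higher under compound 6 than under compound 5 (0.01 to 0.64, adjusted p = 0.262). None of these differences held after adjustment.

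Compounds 4 and 6, which differ in the tert-butyl or cyclohexyl group, showed no detectable difference in these genes. The estimates ran from −0.10 for CPT2 to 0.46 for ANGPTL4. For CPT1A the interval of the difference was −0.12 to 0.78 and for ANGPTL4 it was −0.21 to 1.12, so that a difference of 2-fold remained possible for ANGPTL4. For ACADVL it was −0.11 to 0.37, for HADHA −0.21 to 0.23 and for ACAA2 −0.31 to 0.35. Over all 3 pairs, the intervals of the 7 genes other than ANGPTL4 lay between −0.68 and 0.78.

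**Figure D3:**
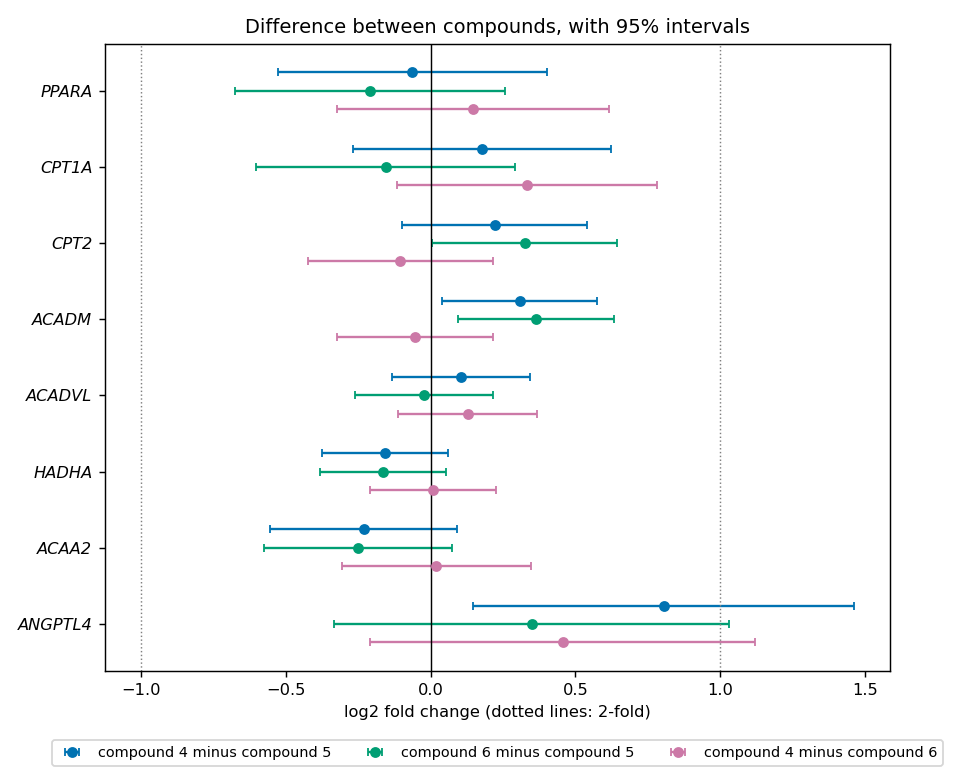
Difference in log2 level between compounds for the 8 tested genes (horizontal axis), with points for the estimates and bars for unadjusted 95% intervals. The ACADM intervals exclude 0 in both comparisons with compound 5, and every interval between compounds 4 and 6 includes 0.

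Other genes of the pathway were then counted over 9 lists, with the 9 genes above left out. Of 81 listed genes 73 were tested. Under compound 4, 8 passed (11.0%, against 9.51% of all genes), 2 higher and 6 lower, where 5.6% and 3.91% of all genes were higher and lower. Under compound 5, 7 passed (9.59%, against 8.3%), 2 higher and 5 lower, beside 5.35% and 2.95% of all genes. With the replicate block the count for compound 4 was 14 of 73, where 1699 of all 13400 genes passed. Under compound 6 none passed by edgeR or DESeq2, with 17 at an unadjusted p under 0.05. With only the 4 libraries compared in the fit, 9 of 72 passed under compound 6, where 1023 of all 12998 genes passed. The medians of the 73 log2-fold changes were −0.03, −0.09 and −0.07 for compounds 4, 5 and 6. These calls depended on single libraries, and so did the calls over all genes. Leaving out a library leaves 1 sample in its group. Each gene that passed under compound 4 or 5 kept the sign of its fold change there in these fits. Under compound 4 the changes ran from −1.12 to −0.87 for EHHADH and from −2.01 to −0.80 for FABP1, both described below.

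**Figure D4:**
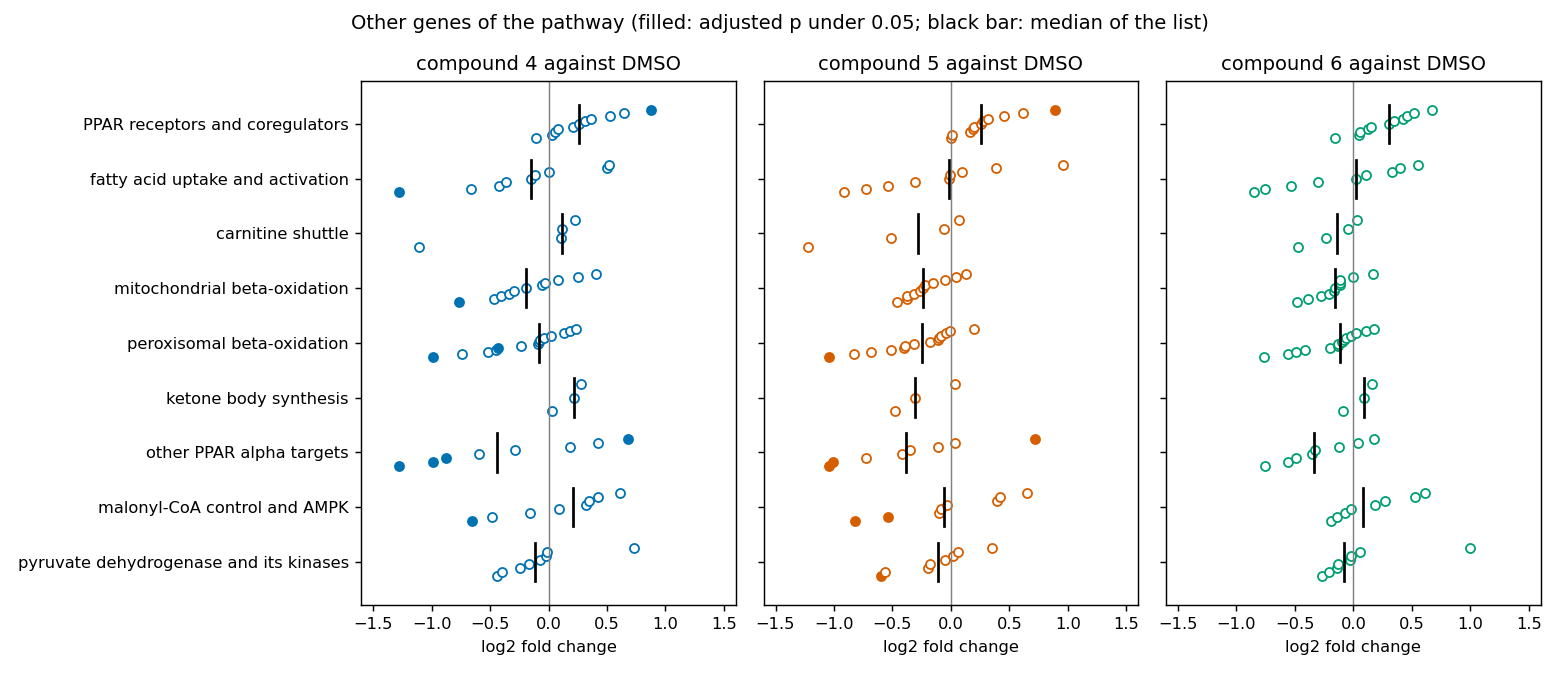
Log2-fold change against DMSO (horizontal axes) of the tested genes of 9 pathway lists, with 1 circle per gene, filled where the adjusted p was under 0.05, and a black bar at the median of the list. A gene on 2 lists is drawn in both. Filled circles lie on both sides of 0 under compounds 4 and 5, and there is none under compound 6.

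Among PPAR receptors and coregulators, 1 of 11 genes passed under compound 4 and 1 under compound 5, both higher. This is 9.09%, close to the 9.51% and 8.3% of all genes that passed under these compounds. Of the 11 genes, 10 had a positive fold change under each compound, beside 51.4%, 50.4% and 52.7% of all genes. The 3 comparisons share the DMSO libraries. PPARG, the receptor best known from fat cells, had 24.0 and 16.1 CPM under DMSO and 36.5 and 36.9 CPM under compound 4 (log2-fold change 0.88, adjusted p = 0.018, edgeR). Under compound 5 its change was 0.61 (adjusted p = 0.061, or 0.042 by DESeq2) and under compound 6 it was 0.52 (adjusted p = 0.172). PPARGC1A, the coactivator of mitochondrial genes, had 31.9 and 26.6 CPM under DMSO and 65.3 and 43.5 CPM under compound 5 (0.89, adjusted p = 0.022). For compound 4 its change was 0.64 (adjusted p = 0.058), which passed with the replicate block (adjusted p = 0.038) and by DESeq2 (adjusted p = 0.025), and for compound 6 it was 0.42 (adjusted p = 0.264).

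Among other PPAR alpha targets, 8 of 14 were tested. Under compound 4 1 rose and 3 fell (50% called, against 9.51% of all genes). Under compound 5 1 rose and 2 fell (37.5%, against 8.3%), and under compound 6 none passed. Negative fold changes were found for 5, 6 and 6 of the 8 under compounds 4, 5 and 6. The medians of the 8 log2-fold changes were −0.44, −0.39 and −0.34, beside 0.01, 0.00 and 0.02 over all genes tested. The one that rose was PLIN2, a coat protein of lipid droplets, with 704 and 573 CPM under DMSO, 1059 and 986 CPM under compound 4, 1207 and 901 CPM under compound 5, and 629 and 688 CPM under compound 6. Its log2-fold change was 0.68 (adjusted p = 0.025, edgeR) under compound 4 and 0.72 (adjusted p = 0.023) under compound 5, against 0.04 under compound 6. FABP1, the fatty acid binding protein of the liver, was at 431 and 332 CPM under DMSO and fell to 219 and 95.7 CPM under compound 4 (−1.28, adjusted p = 0.044). The change ran from −2.01 to −0.80 over the fits that left out 1 library, and it did not pass without DMSO replicate 1, DMSO replicate 2 or compound 4 replicate 2, nor by DESeq2 (adjusted p = 0.069). With compounds 5 and 6 its changes were −0.73 (adjusted p = 0.185) and −0.75 (adjusted p = 0.265). The targets that passed thus moved in both directions, with more of them lower than higher. EHHADH, the bifunctional enzyme of peroxisomes, fell from 30.2 and 30.5 CPM to 16.6 and 14.1 CPM under compound 4 (−0.99, adjusted p = 0.019, edgeR) and to 11.6 and 17.5 CPM under compound 5 (−1.05, adjusted p = 0.017). ACOT1, a thioesterase that releases fatty acids from coenzyme A, fell by 0.88 (adjusted p = 0.027) and 1.01 (adjusted p = 0.019) on the log2 scale. It can share reads with its near-identical neighbour ACOT2, whose changes of −0.29 and −0.35 did not pass.

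Of the untested targets on this list, CYP4A11 had 0 to 2 counts per library, FGF21 0 to 4, VNN1 1 to 12 and G0S2 0 to 3. CYP4A22 had 0 counts in every library, as did ACADL among the other genes of the pathway, and CPT1C had 0 to 2. With PDK4, several of the best known inducible targets were therefore at or near 0 in all groups, DMSO included.

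Of the other genes of mitochondrial beta-oxidation, 1 of 11 passed under compound 4 (9.09%, against 9.51% of all genes) and none under compounds 5 and 6. It was HADH, the dehydrogenase for short hydroxyacyl chains, with 49.6 and 52.0 CPM under DMSO and 32.8 and 27.2 CPM under compound 4 (−0.76, adjusted p = 0.025, edgeR). Fold changes were negative for 8, 9 and 9 of the 11 under compounds 4, 5 and 6. Over all genes, 51.4%, 50.4% and 52.7% of the fold changes were positive. Of 14 peroxisomal genes, 2 fell under compound 4 (14.3%, against 9.51% of all genes called) and 1 under compound 5 (7.14%, against 8.3%). These were EHHADH under both and, under compound 4, ABCD3, a transporter of the peroxisomal membrane (−0.43, adjusted p = 0.046). Fold changes were negative for 10, 13 and 11 of the 14 under compounds 4, 5 and 6, where the 3 comparisons share the DMSO libraries. None of the 4 other tested genes of the carnitine shuttle and none of the 3 of ketone synthesis passed. Over all genes, 9.51%, 8.3% and 0.575% passed under compounds 4, 5 and 6. With so few genes, the lack of a call says little about either list. At the ends of these lists, CPT1B, the muscle form of the entry enzyme, had −1.11, −1.22 and −0.23 and the carnitine transporter SLC22A5 0.22, 0.07 and −0.05 under compounds 4, 5 and 6. BDH1, which interconverts the ketone bodies, had 0.28, −0.30 and 0.16.

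The acetyl-CoA carboxylases make malonyl-CoA, the inhibitor of CPT1A. ACACA, the cytosolic form, fell from 153 and 163 CPM under DMSO to 87.6 and 114 CPM under compound 4 (−0.65, adjusted p = 0.023, edgeR) and to 98.9 and 119 CPM under compound 5 (−0.53, adjusted p = 0.048). Under compound 6 it stood at 150.4 and 151 CPM. ACACB, the form at the mitochondrial membrane, fell under compound 5 from 17.2 and 15.2 to 7.90 and 10.3 CPM (−0.82, adjusted p = 0.042). PDK3, a sister kinase of PDK4, fell under compound 5 from 22.2 and 24.0 to 15.4 and 15.1 CPM (−0.60, adjusted p = 0.036). Between the compounds, 0 of the 73 genes passed in any of the 3 pairs, so none of these changes was shown to differ from one compound to another, and 8, 14 and 8 had an unadjusted p under 0.05 for 4 against 5, 6 against 5 and 4 against 6.

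**Figure D5:**
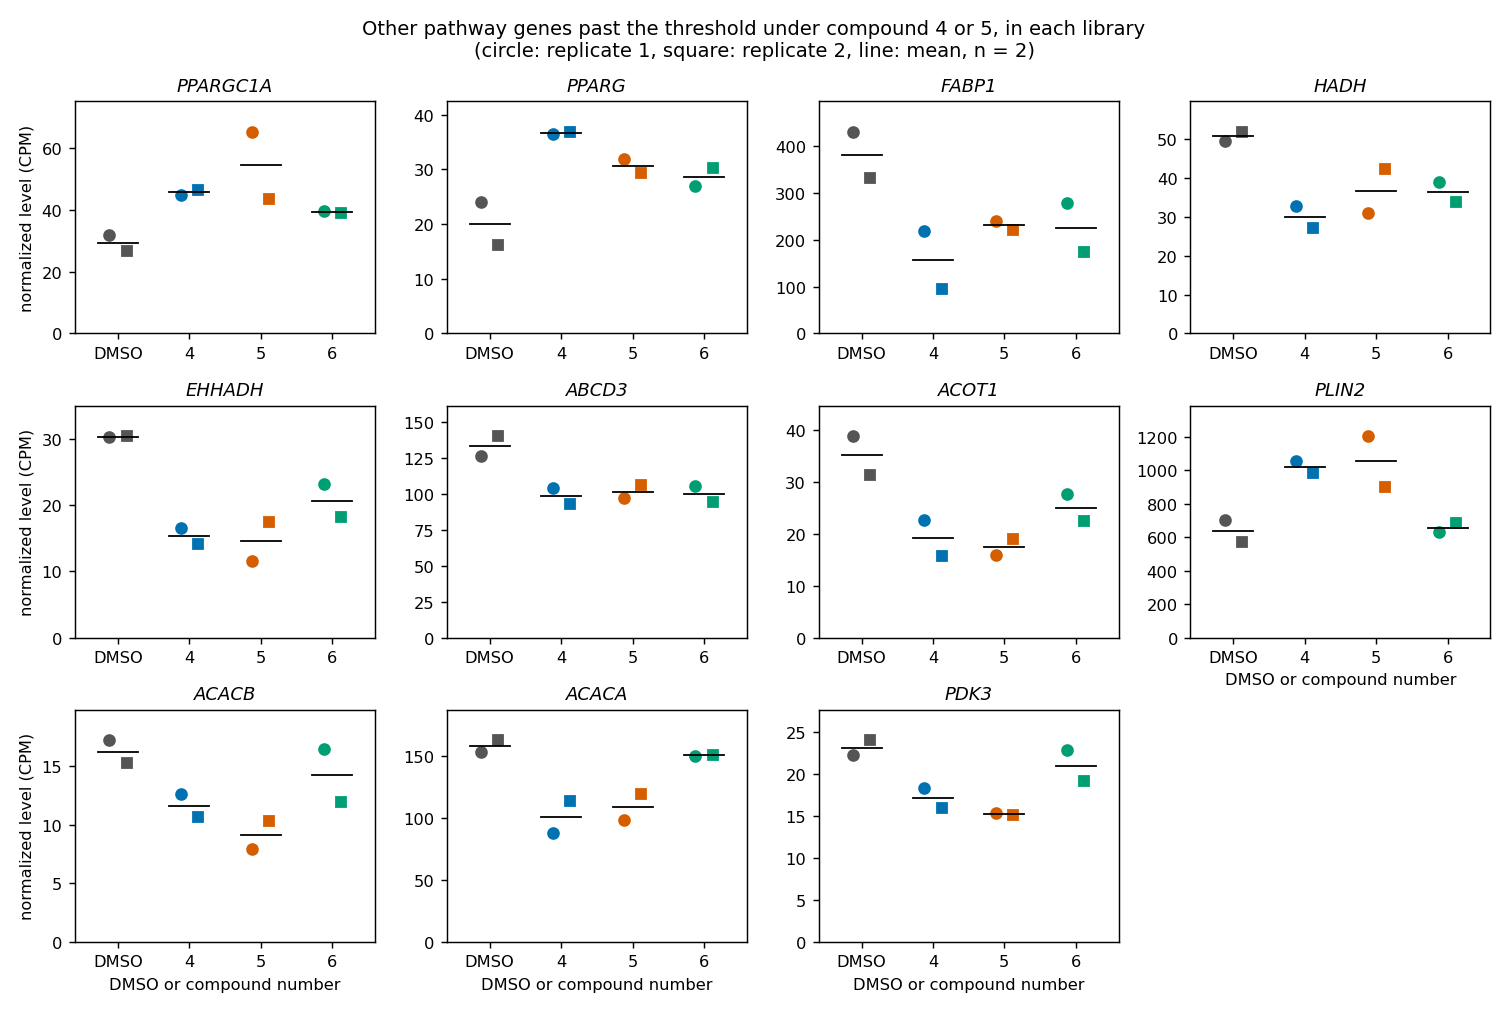
Normalized level in CPM (vertical axes, each starting at 0) of the 11 other pathway genes that passed under compound 4 or 5, in the 2 libraries of each group, with circles for replicate 1, squares for replicate 2 and a line at the mean. PLIN2 under compounds 4 and 5 lies above both DMSO libraries and EHHADH below both.

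The same promoter search was made for these genes. Of the 63 with a RefSeq window, 5 held the repeat with at most 2 mismatches in any of their windows (CD36, SLC27A2, FABP1, ACSL1 and CREB3L3). The single hexamer was held by 6. These are counts of genes, some with several windows, so they cannot be set against the shares of windows given above. FABP1, which fell under compound 4, and CREB3L3, which has the closest match of these windows (1 mismatch), are shown for comparison with ACAA2. Their naming for the motif was decided after their values were seen. The FABP1 stretch is chr2:88128109-88128138 (minus strand, 68 bases before the start, with the repeat on the opposite strand). The CREB3L3 stretch is chr19:4153401-4153430 (plus strand, 222 bases before the start). The capitals mark the whole repeat as aligned, mismatched letters included.
FABP1: acagctgcTGACCTCTGGCCGctattcgaa
CREB3L3: tcataagtAGGGCAGAGGTCAcggcagagt
CREB3L3, a liver transcription factor of fasting, had fold changes of 0.42, 0.03 and −0.33 on the log2 scale for compounds 4, 5 and 6, none past the threshold (adjusted p = 0.104, 0.909 and 0.283, edgeR).

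Some counts may include reads of neighbouring genes. ACADM shares 157 exon bases with RABGGTB on the same strand, CPT2 shares 99 with CZIB, ACADVL shares 85 with DLG4 and ANGPTL4 shares 1 with RAB11B-AS1, the last 3 on the opposite strand. HADHA and HADHB, the genes of the 2 subunits of the trifunctional protein, overlap without shared exon bases. The library kit kept strand, but whether the counting used it is not given in the sources used here.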

How the data were processed

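RNA of 8 samples (4 groups of 2) was sequenced from directional libraries. The labels describe 2 of the replicate 1 libraries as merged. According to the methods and the submitters' processing notes, the authors checked reads with FastQC 0.12.0 and quantified them with Salmon 1.5.0 against a GRCh38 annotation. The estimated counts per gene were deposited as whole numbers without normalization (60230 genes, 23080 with at least 1 count). The submitters' notes also list DESeq2 1.38.3. Positions came from GENCODE 29 for 57972 identifiers, and symbols were found for 60089.

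The tests were run with edgeR 4.0.16 in R 4.3.3. Genes were kept with filterByExpr (minimum count 10), scaled with TMM and tested in 1 quasi-likelihood fit that held all 8 samples and no block. Benjamini-Hochberg adjustment was made over 13400 genes, with a threshold of 0.05. Standard errors and 95% intervals were derived from the F statistics and are not adjusted. CPM used TMM-scaled library sizes. Levels per kilobase used the longest principal coding transcript. The statistics were tested on simulated data.

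The members and gene lists were chosen with earlier results of these data known. Other named genes were up to 4 per list past the threshold against DMSO, by largest change, or the highest and lowest where none passed, plus the nearest profiles to the member with the smallest p. Results of some genes on the lists are not reported here. Replicate numbers were taken as pairs only in the alternative fit with a replicate block, because the labels give a shared day. The main tests and intervals were not paired. The correlation of deviations between same-numbered libraries was −0.15 to 0.24 over 6 pairs of groups. Whether the replicates were separate cultures is not given in the sources used here, so p-values measure the spread between these libraries. With 2 libraries against 2, no permutation test can pass the threshold. The alternatives were DESeq2 1.42.0, a replicate block, only the 4 samples compared, DESeq2 size factors, other filters and leaving out each library.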

Additional observations from a re-analysis of the deposited data

How the results depend on the processing

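Fold changes of the 8 members gave 672 alternative values, of which 632 kept their direction and side of the threshold, 15 newly passed it and 25 changed sign, all on leaving out a library. Members past the threshold under compound 4 numbered 1 by DESeq2, 2 with the replicate block (CPT1A and ACADVL), 3 without a filter and 1 with a minimum of 10 counts in every sample. Under compound 5 the count was 2 without a filter, under compound 6 it was 1 with only the 4 samples compared and 1 without a filter, and between compounds 4 and 5 it was 1 without a filter. Leaving out 1 library at a time gave 0 to 1 members under compound 4 and 0 in the other comparisons. The replicate block changed no other call among the members.

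Without a filter the counts over all genes were 2383 under compound 4, 2431 under compound 5, 1355 under compound 6, 750 for 4 against 5, 990 for 6 against 5 and 259 for 4 against 6. DESeq2 gave 547 under compound 6, 210 for 4 against 5, 379 for 6 against 5 and 59 for 4 against 6. The block gave 128, 269 and 1 for these pairs. With only the 4 samples compared there were 1023 under compound 6, 10 for 4 against 5 and 49 for 6 against 5. DESeq2 size factors gave 47 under compound 6, and a minimum of 10 counts in every sample gave 198 there, 65 for 4 against 5 and 5 for 4 against 6. Leaving out 1 library gave 43 to 1681 under compound 4 (1275 with all libraries), 46 to 1814 under compound 5 (1112), 2 to 432 under compound 6 (77), 9 to 25 for 4 against 5 (42), 0 to 105 for 6 against 5 (138) and 0 to 13 for 4 against 6 (0). Other pathway genes past the threshold numbered 14 with the block and 18 without a filter under compound 4, 23 without a filter under compound 5, and 9 with only the 4 samples compared and 10 without a filter under compound 6. Leaving out 1 library gave 0 to 10 under compound 4 and 0 to 13 under compound 5. The cause of these differences was not tested.

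Among the log2-fold changes that changed sign on leaving out a library, the ranges for compound 4 against compound 6 were −0.19 to 0.20 for ACAA2, −0.18 to 0.087 for ACADM, −0.24 to 0.019 for CPT2, −0.056 to 0.064 for HADHA and −0.084 to 0.42 for PPARA. For compound 6 against 5 they were −0.12 to 0.078 for ACADVL, −0.34 to 0.054 for CPT1A and −0.48 to 0.017 for PPARA, and for compound 4 against 5 they were −0.012 to 0.39 for CPT1A and −0.23 to 0.12 for PPARA. Against DMSO, compound 4 gave −0.41 to 0.20 for ANGPTL4 and −0.074 to 0.56 for BDH1, and compound 5 gave −0.036 to 0.52 for CPT1A and −0.064 to 0.036 for HADHA. Compound 6 against DMSO gave −0.19 to 0.37 for CPT1A, −0.13 to 0.053 for CPT2, −0.075 to 0.44 for PPARA, −0.45 to 0.028 for ACACB, −0.27 to 0.48 for BDH1, −0.10 to 0.19 for PLIN2 and −0.23 to 0.11 for SLC22A5. Of 630 alternative values of the other named genes, 535 kept direction and side, 60 lost the call, 29 gained it and 6 changed sign. Where a library was left out its group had 1 sample, which was assumed to vary like the others. With 52 to 122 counts per library, ANGPTL4 had the widest intervals of the members, and PDK4 could not be tested.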

Other observations

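The members' libraries followed the replicate number in part. CPT1A and ACADM were higher in replicate 1 than in replicate 2 in 4 of 4 groups, ACADVL in 0 of 4, and each of the other 5 tested members in 3 of 4. For CPT1A, the difference between compound 4 and DMSO within a replicate number was 0.23 for replicate 1 and 0.61 for replicate 2 on the log2 scale.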
